A study of Mus musculus with 9 samples.

Results

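The endoplasmic reticulum (ER) chaperone and stress genes are a set of 32 genes whose products fold, modify and clear proteins in the ER or signal when that work falls behind. The members were the listed symbols whose mean reached 10 normalized counts over the 9 libraries, and 32 of 32 symbols met this. The table holds 57180 genes, of which 17036 reached the same mean and were tested together. RNA-seq was done on whole hippocampus of 11-day-old C57BL6 mice. In 4 animals (cKO), Slc38a3, the gene of the sodium-coupled glutamine transporter SNAT3, was selectively knocked out in endothelial cells, and 5 animals were wild type (WT). Males made up 3 of the 4 cKO animals (replicates 1, 3 and 4) and 1 of the 5 WT animals (replicate 1). Neither the driver of the deletion nor the litters are named in the labels, so p-values measure the spread between these animals' libraries. Each value is a count scaled by the size factor of its library (normalized count), from 30803135 to 34034530 reads per library. Slc38a3 was examined first, and was at 351 ± 49.4 normalized counts in cKO (SD, n = 4) against 2821 ± 829.8 in WT (SD, n = 5), a log2 fold change of -2.99 ± 0.221 (SE, limma adjusted p = 5.54e-05). In RNA from whole tissue, fewer cells of a type and less RNA per cell cannot be told apart. The neuronal markers that define the labelled tissue were present, with Slc17a7 at 41235 to 48516 and the dentate gyrus marker Prox1 at 5918 to 7188 normalized counts.

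Secreted and membrane proteins enter the ER as they are made, where chaperones of the HSP70 and HSP90 classes, lectin chaperones and disulfide isomerases fold them. Proteins that fail to fold are returned to the cytosol and degraded, a route called ER-associated degradation. When unfolded proteins build up, the sensors Ern1 (IRE1), Eif2ak3 (PERK) and Atf6 start the unfolded protein response, in which the factors made from Xbp1 and Atf6 raise the transcription of chaperone and degradation genes. Neurons and glia of the developing brain make large amounts of membrane and secreted protein and express this machinery without added stress.

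The factors of this response are known to act through short promoter elements, and these were looked for because they tie the members together by sequence. The elements were not used to choose the members. The members were, though, listed as genes of this response and of ER folding, so a high share of matches among them is no independent finding. The ER stress response element (ERSE) is CCAAT, 9 bases of any kind, then CCACG. Its compact form, ERSE-II, is ATTGG, 1 base, then CCACG. Both were searched on both strands of RefSeq promoters (GRCm38.p6), windows of 300 bases that end 50 bases after the start of each gene. Of the 32 members, 26 had a promoter in the table, and Atf6, Derl1, Manf, Ostc, Hyou1 and Hspa13 did not. The stretches below hold ERSE in Hspa5, Canx, Pdia6, Dnajc3, Calr, Derl3 and Ero1b and ERSE-II in Herpud1, written 5′ to 3′ along the gene, with the fixed bases at the ends of the element in capitals. They are shown because the genes that carry them have log2 fold changes, cKO minus WT, on both sides of 0, none of which passed the test.
Hspa5: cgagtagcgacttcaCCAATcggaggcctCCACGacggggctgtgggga
Canx: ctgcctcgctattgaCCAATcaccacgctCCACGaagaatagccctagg
Pdia6: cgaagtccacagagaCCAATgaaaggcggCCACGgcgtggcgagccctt
Dnajc3: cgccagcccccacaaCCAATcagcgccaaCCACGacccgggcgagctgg
Calr: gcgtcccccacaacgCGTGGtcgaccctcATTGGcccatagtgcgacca
Derl3: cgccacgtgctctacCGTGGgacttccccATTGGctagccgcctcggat
Ero1b: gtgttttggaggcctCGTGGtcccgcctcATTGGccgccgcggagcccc
Herpud1: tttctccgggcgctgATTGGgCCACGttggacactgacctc
In Hspa5, Canx, Pdia6 and Dnajc3 the element reads along the gene, and in Calr, Derl3 and Ero1b it lies on the other strand, so that ATTGG follows CGTGG. The Hspa5 stretch is chr2:34772010-34772058 on the plus strand, that of Canx chr11:50325785-50325833 on the minus strand, that of Pdia6 chr12:17266476-17266524 on the plus strand and that of Dnajc3 chr14:118937812-118937860 on the plus strand. The Calr stretch is chr8:84847060-84847108 on the minus strand, that of Derl3 chr10:75893227-75893275 on the plus strand, that of Ero1b chr13:12565667-12565715 on the plus strand and that of Herpud1 chr8:94386362-94386402 on the plus strand. All lie upstream of the start, from 80 to 32 bases before it in Hspa5 and from 216 to 168 bases before it in Ero1b.

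ERSE was found for 10 of the 26 members (38.5%), which were Calr, Canx, Creld2, Derl3, Dnajc3, Ero1b, Hsp90b1, Hspa5, Pdia6 and Syvn1. It was found for 37 of the 27025 genes with a promoter searched (0.137%), each gene counted once. Hsp90b1 held 2 matches. ERSE-II was in Herpud1 and Dnajb11, 2 of 26 (7.69%), against 0.0444% of all genes searched. The match in Herpud1 lay upstream of the start of the gene, and that in Dnajb11 after it. The CCACG end alone, which both elements contain, was in 22 of 26 (84.6%) against 35.5%. A further element bound by the Xbp1 factor, TGACG directly followed by TGG, was found for 0 of the 26 members and 0.714% of all genes searched. A match is a description of the letters and shows no binding. The 12 members with ERSE or ERSE-II had a median log2 fold change, cKO minus WT, of -0.0557, with 8 below 0 and 4 above. In the 14 members with neither, the median was -0.0589, with 9 below 0 and 5 above. Both sets thus held members on either side of 0.

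Levels of the members can be compared with each other only per length, and were therefore divided by exon length (GENCODE M21). The lectin chaperone Calr was the highest, at 5214 normalized counts per kb, ahead of Canx at 3223, Pdia3 at 2465, Hsp90b1 at 2323 and Hspa5 at 2079. In Calr the lowest library (4768) was above the highest of Canx (3448), while the ranges of Pdia3 (2158 to 2653), Hsp90b1 (2065 to 2539) and Hspa5 (1886 to 2243) overlapped. The sensors were far lower, with Atf6 at 203, Eif2ak3 at 162 and Ern1 at 48.2 per kb. Derl3, a member of the derlin family, was the lowest at 8.18 per kb, with 5.39 to 13.3 over the libraries, below Pdia5 at 38.9. In counts not divided by length, 23 of the 32 members had a mean of 1000 or more.

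**Figure D1:**
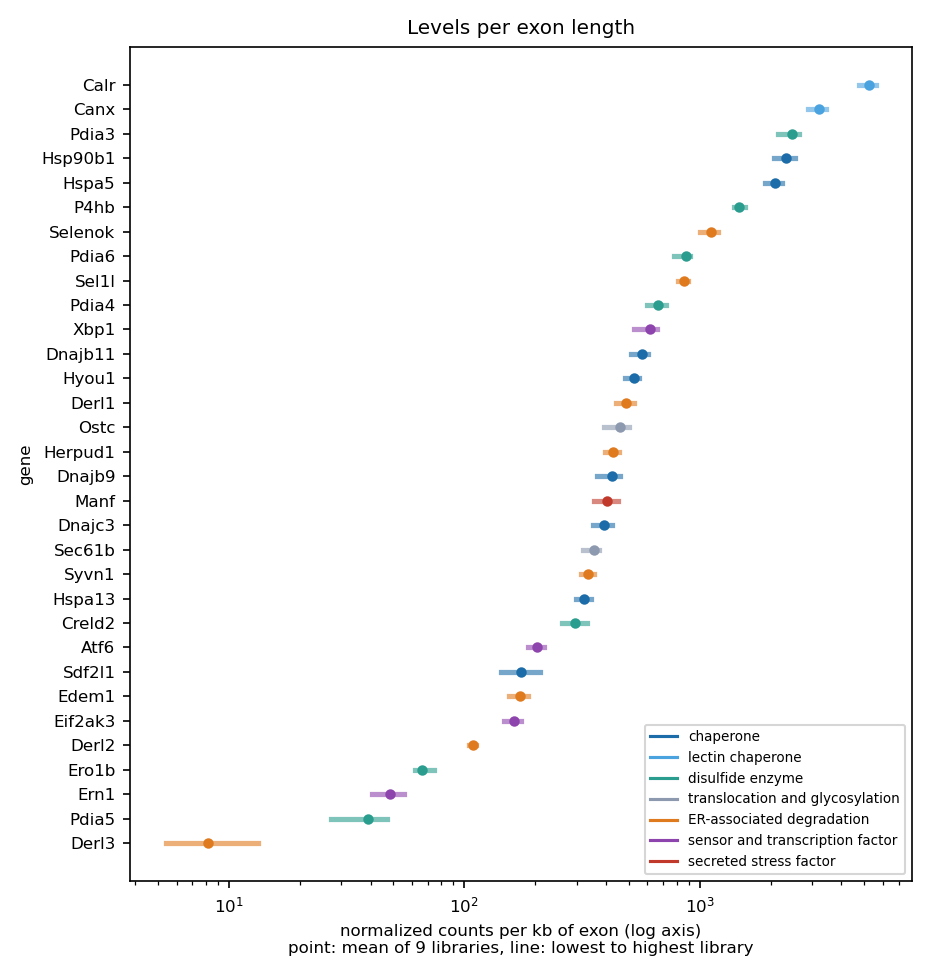
Normalized counts per kb of exon for each of the 32 members on a log axis, with the point at the mean of the 9 libraries and the line from the lowest to the highest library. Calr leads at 5214 per kb, and Derl3 is last at 8.18 per kb.

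Between cKO and WT, most chaperones, lectins and disulfide enzymes were a few percent lower in cKO, and no member passed the test. Of 17036 genes, 0.346% passed limma with sex as a term (Benjamini-Hochberg adjusted p under 0.05), and 0 of the 32 members did. edgeR on the recovered reads called 0 members, where it called 0.335% of all genes. At an unadjusted p under 0.05 edgeR had 4 members lower (against 5.50% of all genes) and 2 higher (against 5.55%). DESeq2 called 1 member, Manf, where it called 1.17%. At an unadjusted p under 0.05, limma had 5 members lower in cKO (15.6%, against 6.40% of all genes), which were Manf, Hyou1, Dnajb11, Calr and Pdia3. In the other direction it had 1 member higher, Herpud1 (3.12%, against 4.94% of all genes). The log2 fold change was below 0 in 21 members (65.6%, against 51.2% of all genes), and its median was -0.0582 over the members and -0.00342 over all genes tested. In 5 members, every cKO library lay below every WT library (15.6%, against 3.72% of all genes), and these were the same 5 genes. In 1 member, Eif2ak3, every cKO library lay above every WT library (against 2.58% of all genes).

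The differences were small and, for the tissue as a whole, mostly well bounded. A larger change confined to endothelial cells, where Slc38a3 was knocked out, could lie within the bounds below and was not measured. The median standard error was 0.0533 on the log2 scale for the members and 0.0815 for all genes tested. For 28 of the 32 members the 95% interval of the fold change left out a 1.25-fold change in either direction, and the exceptions were Manf, Sdf2l1, Pdia5 and Derl3. For 30 members it left out a 1.5-fold change, the exceptions being Pdia5 and Derl3, which are among the members with the fewest counts. The interval included 0 in 26 members. The sign of the estimate changed under at least 1 alternative fit or left-out library in 12 members, among them Pdia6, Creld2, Sel1l, Syvn1, Atf6, Ero1b and Edem1, and under none in the other 20.

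**Figure D2:**
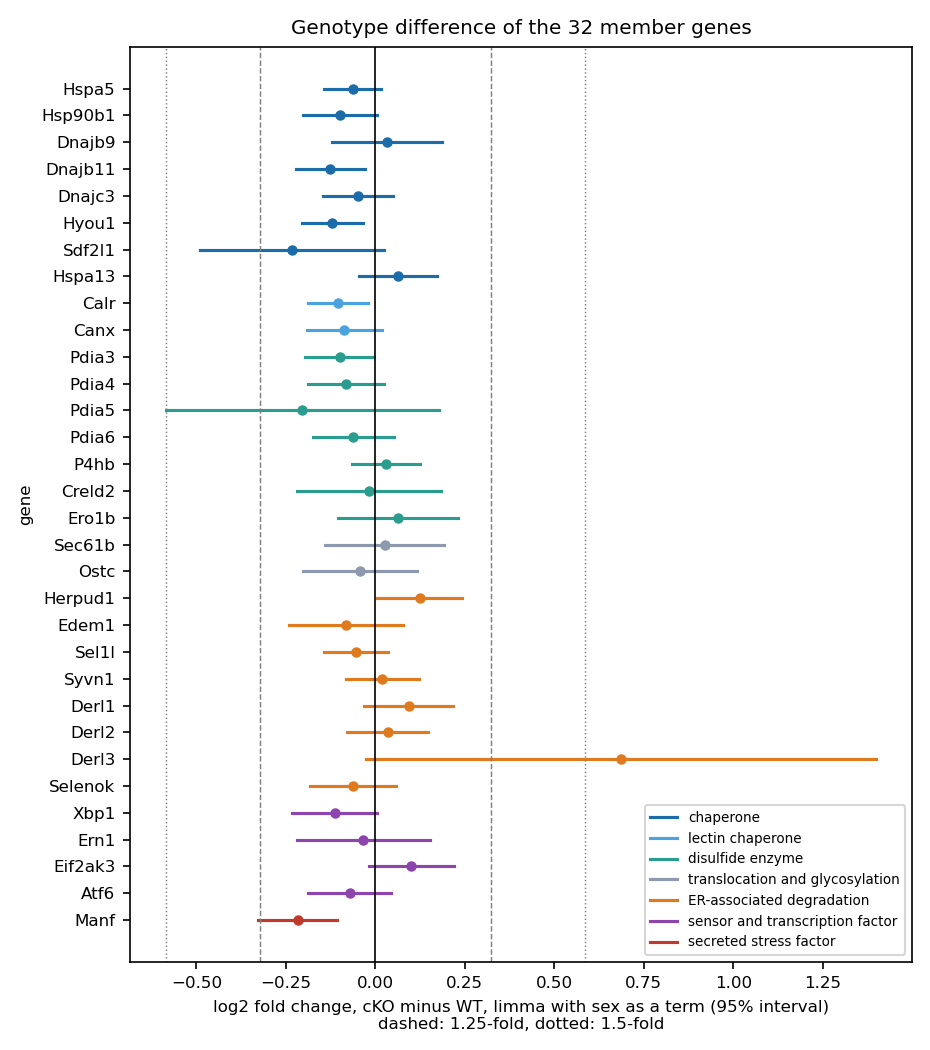
Log2 fold change, cKO minus WT, of each of the 32 members from limma with sex as a term, with its 95% interval, dashed lines at 1.25-fold and dotted lines at 1.5-fold. Of the points, 21 lie left of 0 and 11 right of it, and only the intervals of Pdia5 and Derl3 reach past 1.5-fold.

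The 8 chaperones proper are the HSP70-type proteins Hspa5 (BiP), Hyou1 and Hspa13, the HSP90-type protein Hsp90b1, and the co-chaperones Dnajb9, Dnajb11, Dnajc3 and Sdf2l1. Hspa5 (ENSMUSG00000026864, chromosome 2, 34661981 to 34667559 in GRCm39, as all coordinates of genes here) encodes the main ER chaperone, which also holds the sensors inactive. Its level was 8327, 8878, 7977 and 8311 normalized counts in cKO replicates 1 to 4 and 8599, 9485, 9193, 9226 and 9117 in WT replicates 1 to 5. The cKO female (replicate 2) lay above the WT male (replicate 1), so the groups overlapped, while within each sex cKO was lower. limma gave a log2 fold change of -0.06 ± 0.0367 (SE) with an adjusted p of 0.536, with a 95% interval from -0.14 to 0.02. Without the sex term the value was -0.12 (adjusted p = 0.141).

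Hsp90b1 (ENSMUSG00000020048, chromosome 10, 86526072 to 86541373), the ER form of HSP90, was at 8328, 8918, 8879 and 9410.5 normalized counts in the cKO libraries and 9123, 9639, 9816, 10236 and 9941 in the WT libraries. Only cKO replicate 4 and WT replicate 1, both male, overlapped. The estimate was -0.10 ± 0.0479 on the log2 scale (SE; limma adjusted p = 0.458). Hyou1 (ENSMUSG00000032115, chromosome 9, 44290786 to 44303666), which helps Hspa5 release nucleotide, was at 3700.0, 3499, 3732 and 3698 in cKO and 3929, 3776, 4006, 3884 and 3935 in WT. The groups did not overlap, and the lowest value in each was that of replicate 2. On the log2 scale cKO minus WT was -0.12 ± 0.0395 (SE), at a limma adjusted p of 0.269. Dnajb11 (ENSMUSG00000004460, chromosome 16, 22676594 to 22698384), a co-chaperone that passes unfolded chains to Hspa5, was at 1653, 1766, 1789.9 and 1708 in cKO and 1873, 1946, 1898, 1957 and 1911 in WT. All cKO libraries were below all WT libraries. With sex as a term, the log2 difference was -0.13 ± 0.0447 (SE, adjusted p = 0.309 in limma).

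The other 4 chaperones had larger standard errors or smaller differences. Sdf2l1, a partner of Dnajb11, had a log2 fold change of -0.23 ± 0.119 at a low level of 158 to 232 normalized counts (SE, limma adjusted p = 0.477). Dnajc3, which is both a co-chaperone and an inhibitor of the kinase Eif2ak3, was at 1920.0 ± 94.0 in the 4 cKO and 2091 ± 107 in the 5 WT libraries (mean ± SD). Its log2 fold change was -0.05 ± 0.0455 with sex as a term (SE, limma adjusted p = 0.712) and -0.12 without that term. Hspa13 was at 0.06 on the log2 scale. Dnajb9 was at 0.03 with sex as a term and -0.03 without it. Of the 8 chaperones, 6 were below 0 and 2 above, with a median of -0.0811.

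Calr and Canx encode calreticulin and calnexin, which hold glycoproteins by their sugars while they fold and also bind calcium. Calr (ENSMUSG00000003814, chromosome 8, 85568478 to 85573563) was at 14049, 14645, 13732 and 14457 normalized counts in cKO and 15102, 16222, 16075, 15534 and 15318 in WT. No library of one group reached the other. limma gave a log2 fold change of -0.10 ± 0.0387 (SE) with an adjusted p of 0.325. Canx (ENSMUSG00000020368, chromosome 11, 50184787 to 50216500) was at 13594, 14308, 14650.2 and 15466 in cKO and 14809, 15513, 15662, 16182 and 15942 in WT. Again cKO replicate 4 lay above WT replicate 1, the WT male. The estimate was -0.09 ± 0.0485 on the log2 scale (SE; limma adjusted p = 0.521).

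The 7 disulfide enzymes form and rearrange the bonds between cysteines. Pdia3 (ENSMUSG00000027248, chromosome 2, 121244255 to 121269168), the isomerase that works with Calr and Canx, was at 6774, 7554, 7408 and 7589 normalized counts in cKO and 7711, 8224, 8002, 8329 and 8061 in WT. The groups did not overlap, and cKO replicate 1 was the lowest. On the log2 scale cKO minus WT was -0.10 ± 0.0444 (SE), at a limma adjusted p of 0.42. Pdia4 (ENSMUSG00000025823, chromosome 6, 47773074 to 47790364), an isomerase with additional thioredoxin domains, was at 1536, 1548, 1439 and 1582 in cKO and 1552, 1727, 1667, 1677 and 1697 in WT. WT replicate 1 lay among the cKO values and the other WT libraries above them. With sex as a term, the log2 difference was -0.08 ± 0.0494 (SE, adjusted p = 0.558 in limma).

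P4hb, the classical protein disulfide isomerase and a subunit of prolyl 4-hydroxylase, was at 4187 ± 142 in the 4 cKO and 4193 ± 169 in the 5 WT libraries (mean ± SD), with a log2 fold change of 0.03 and a 95% interval from -0.07 to 0.13. The oxidase Ero1b, which supplies the isomerases with oxidizing power, had a log2 fold change of 0.06. Pdia6, an isomerase that binds Hspa5, had one of -0.06, Creld2 one of -0.02 and Pdia5 one of -0.20 ± 0.177 (SE) at 75.4 to 129.6 normalized counts.

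**Figure D3:**
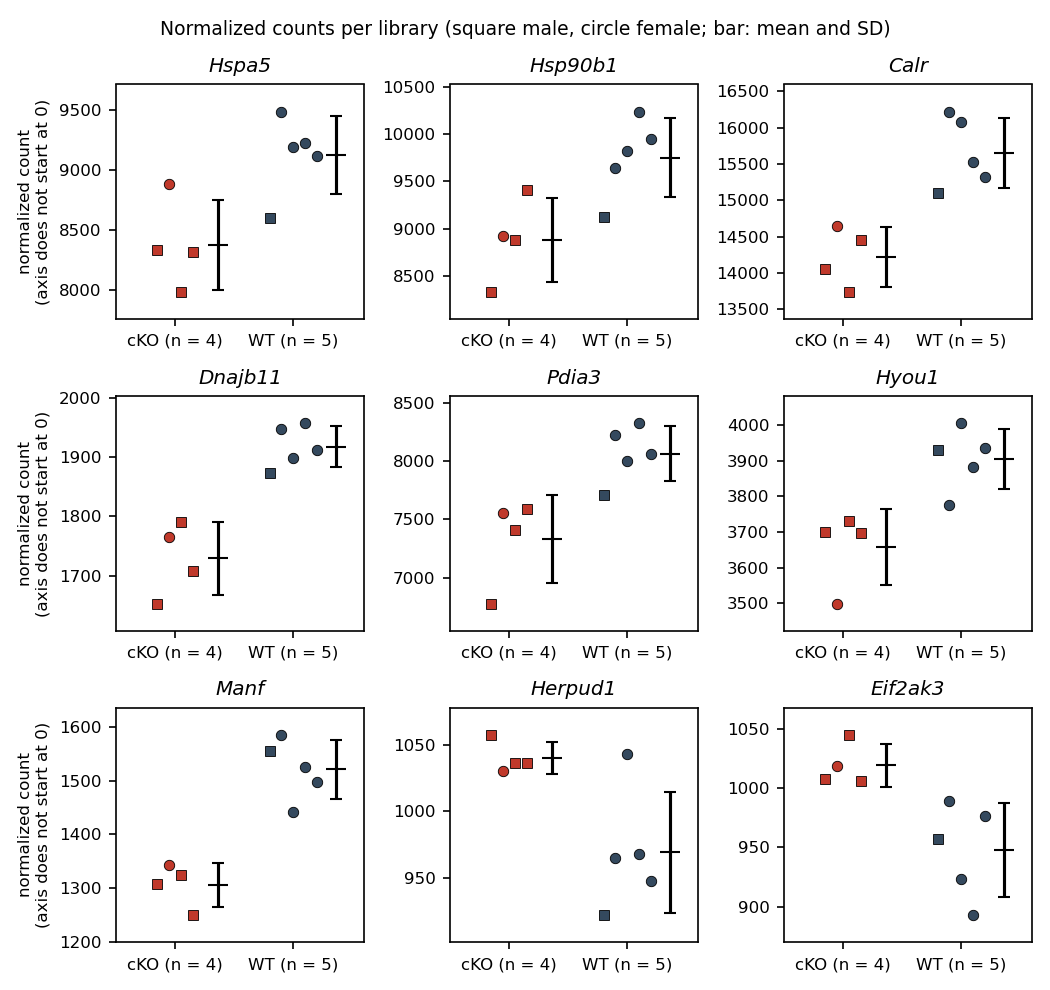
Normalized counts per library of 9 members in cKO (red, n = 4) and WT (dark, n = 5), squares for males and circles for females, with the mean and SD beside each group and axes that do not start at 0. The groups lie apart for Calr, Dnajb11, Pdia3, Hyou1, Manf and Eif2ak3 and overlap for Hspa5, Hsp90b1 and Herpud1.

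The 8 members of ER-associated degradation were split, with 5 log2 fold changes above 0, 3 below and a median of 0.0270. Herpud1 (ENSMUSG00000031770, chromosome 8, 95113065 to 95122005), a membrane protein that assembles the degradation complex, was at 1058, 1030.2, 1036 and 1036 normalized counts in cKO and 921, 965, 1044, 968 and 947 in WT. WT replicate 3 lay within the cKO values and the other WT libraries below them. limma gave a log2 fold change of 0.12 ± 0.0549 (SE) with an adjusted p of 0.419. Derl3 (ENSMUSG00000009092, chromosome 10, 75729246 to 75731775) had the largest estimate, 1.61-fold higher, from 23.9, 26.4, 11.6 and 17.0 in cKO and 12.0, 11.4, 17.6, 16.1 and 10.8 in WT. At these low counts 2 of the 4 cKO libraries lay within the WT range. The estimate was 0.69 ± 0.331 on the log2 scale (SE; limma adjusted p = 0.454), with an interval from -0.03 to 1.40.

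Derl1 and Derl2, the more abundant derlins, which form part of the channel out of the ER, had log2 fold changes of 0.09 and 0.03. Syvn1, the ubiquitin ligase of the complex, had one of 0.02, and its partner Sel1l one of -0.05. Edem1, which picks out misfolded glycoproteins, had one of -0.08, and the selenoprotein Selenok one of -0.06. None had an unadjusted p under 0.05.

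Among the sensors and their factor, Xbp1 and Atf6 had the lower mean in cKO, and Eif2ak3 and Ern1 the higher. Xbp1 (ENSMUSG00000020484, chromosome 11, 5470658 to 5475893), whose messenger RNA is spliced by Ern1 to give the active factor, was at 1949, 2020.2, 1714 and 1837 normalized counts in cKO and 2095, 2142, 2070.4, 2002 and 2085 in WT. The cKO female, replicate 2, overlapped WT replicate 4. On the log2 scale cKO minus WT was -0.11 ± 0.0554 (SE), at a limma adjusted p of 0.458. Counts per gene do not separate the spliced from the unspliced form. Eif2ak3 (ENSMUSG00000031668, chromosome 6, 70821498 to 70882229), the kinase that slows translation, was at 1007, 1018, 1045 and 1006 in cKO and 957, 989, 923, 893 and 976 in WT. All cKO libraries lay above all WT libraries. With sex as a term, the log2 difference was 0.10 ± 0.0551 (SE, adjusted p = 0.517 in limma). Atf6 had a log2 fold change of -0.07. That of Ern1 was -0.03 with sex as a term and 0.08 without it, with a cKO range of 332 to 455 around WT values of 369 to 399.

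Manf had the smallest p of the members, though 121 other genes had a smaller one. It encodes a small protein that is kept in the ER by Hspa5, is secreted, and protects neurons in other settings. Manf (ENSMUSG00000032575, chromosome 9, 106715510 to 106769178) was at 1308, 1343, 1325 and 1249 normalized counts in cKO and 1556, 1586, 1442, 1525 and 1497 in WT. The gap between the highest cKO and the lowest WT library was wider than the range of the cKO libraries. In limma this was -0.22 ± 0.0515 on the log2 scale (SE, adjusted p = 0.132), or 1.16-fold lower. The mean was lower in cKO in both sexes, a comparison that rests on 1 WT male and 1 cKO female. That held for 15 of the 32 members, and 8 were higher in both sexes. Manf passed with DESeq2 (adjusted p = 0.0384) and in limma without the sex term (adjusted p = 0.0216, where 1.27% of all genes passed). With the mean of meningeal fibroblast markers as a covariate, Manf was at -0.185 on the log2 scale and no member had an adjusted p below 0.538, in a fit that called 10 of all genes. The Manf gene as annotated in the table spans 53669 bases and overlaps Dcaf1 over 42682 bases and Rbm15b over 6512, mostly within introns. In GENCODE M21, 146 of its 3524 exon bases are shared with Dcaf1, on the opposite strand, and 14 with Rbm15b, on the same strand. The strand setting of the counting is not known here, so reads from these shared bases cannot be assigned. Dcaf1 was at 1061 ± 79.6 in the 4 cKO and 1107 ± 29.2 in the 5 WT libraries (mean ± SD), and Rbm15b at 2395 ± 41.7 and 2367 ± 50.7. Derl2, Hsp90b1, Pdia3, Pdia6 and Syvn1 also overlap genes whose mean is 10 or more.

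Sec61b and Ostc stand for entry into the ER and for glycosylation. Sec61b (ENSMUSG00000053317, chromosome 4, 47474657 to 47483242), a subunit of the translocation channel, was at 419.6, 465, 475 and 451 normalized counts in cKO and 449, 462, 459, 467 and 408 in WT. limma gave a log2 fold change of 0.03 ± 0.0772 (SE) with an adjusted p of 0.926. Ostc (ENSMUSG00000041084, chromosome 3, 130489560 to 130503093), a subunit of the oligosaccharyltransferase, was at 1078, 1374, 1213 and 1240.0 in cKO and 1345, 1372, 1223, 1282 and 1256 in WT. Its highest value and its lowest were both in cKO libraries. The estimate was -0.04 ± 0.0736 on the log2 scale (SE; limma adjusted p = 0.86), and its sign changed without WT replicate 1 (0.0995). Sec61b likewise changed sign without cKO replicate 2 (-0.00280).

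Seen by library, the highest value of a member fell most often in WT replicate 4 (9 members) and WT replicate 2 (7 members), and the lowest most often in cKO replicate 1 (10 members) and cKO replicate 3 (7 members). The mean of the cKO libraries was below that of the WT libraries in 22 members. Of the 17 folding members, 11 to 14 were below their own mean in each cKO library, 11 in WT replicate 1, the WT male, and 2 to 4 in each of the other WT libraries. On this measure the WT male stood with the cKO libraries, of which 3 are male, and sex and genotype are told apart here only through the single WT male and the single cKO female.

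**Figure D4:**
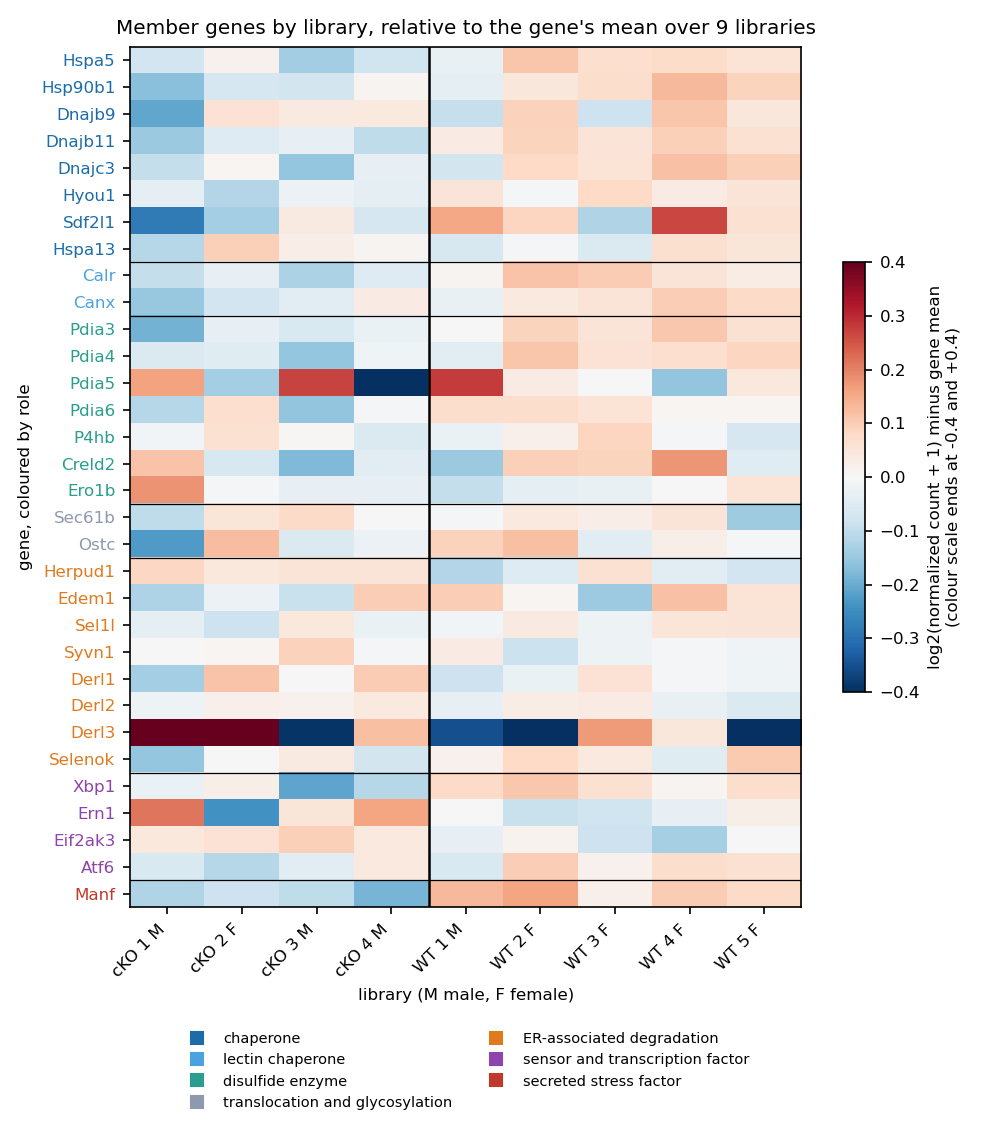
Log2 normalized count of each of the 32 members in each of the 9 libraries relative to the gene's mean over all libraries, with genes coloured by role and libraries marked M or F by sex. The 17 folding genes are mostly below their mean in the 4 cKO libraries and in WT replicate 1, and mostly above it in WT replicates 2 to 5.

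Summed over the 17 folding members (chaperones, lectins and disulfide enzymes), the level was 71195, 75493, 73000 and 75867 normalized counts in cKO and 76372, 80837, 80520, 81341 and 79894 in WT. The groups did not overlap, and the WT male, replicate 1, was the closest to cKO. The means were 73889 ± 2201 (SD, n = 4) and 79793 ± 1983 (SD, n = 5). Taking all animals together cKO was 7.40% lower, which was more than within either sex. Within males cKO was 3.95% lower (73354 in 3 against 76372 in 1) and within females 6.39% lower (75493 in 1 against 80648 in 4). Of these 17 genes, 13 were below 0, with a median log2 fold change of -0.0814. Over the other 15 members cKO was 2.93% lower in all animals (2.07% in males), 8 were below 0 and the median was -0.0338. The sum over all genes tested was itself 2.00% lower in cKO, also with no overlap, and a sum is led by the most abundant genes.

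Sex was examined because it was unevenly spread over the genotypes. No member passed for male against female in limma, where 0.0528% of all genes passed. At an unadjusted p under 0.05, 3 members differed by sex (9.38%, against 6.73% of all genes). These were Hspa5 (-0.11, male minus female on the log2 scale, adjusted p = 0.684), Dnajc3 (-0.13, adjusted p = 0.684) and Ern1 (0.21, adjusted p = 0.72). Taken within each sex, every cKO library was below every WT library in males and in females alike for 7 members (21.9%, against 8.83% of all genes). These were Hspa5, Calr, Pdia3, Dnajb11, Hyou1, Sdf2l1 and Manf. The reverse held for 1 member, Eif2ak3 (against 7.81% of all genes). Each of these comparisons rests on 1 WT male or 1 cKO female.

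Other genes of the same pathways were followed in 9 lists, and 0 of the 148 entries tested in them passed limma, while 13 had an unadjusted p under 0.05 in the lower direction (8.78%, against 6.40% of all genes) and 8 in the higher (5.41%, against 4.94%). These shares were near those of all genes. For the sums and signs below, the sum over all genes tested was itself 2.00% lower in cKO with no overlap. Of all genes 51.2% were below 0. Of the 23 other ER folding genes tested, 15 were below 0 and 8 above, and the summed level was 2.35% lower in cKO. The gene of smallest p there was Txndc5, another disulfide isomerase, at 0.14 (adjusted p = 0.397). In the 11 oligosaccharyltransferase subunits, which attach sugars to nascent chains, 9 were below 0, with Stt3b, a catalytic subunit, at -0.12 (adjusted p = 0.35). Their sum was 3.95% lower, from 29504 to 30632 in cKO and 30836 to 31763 in WT, with no overlap. In the 23 signal peptide and translocon genes 16 were below 0, the sum was 2.84% lower, and the gene of smallest p was the channel subunit Sec61a2 at -0.13 (adjusted p = 0.332). The 24 other genes of ER-associated degradation were divided evenly, 11 below 0 and 13 above, with a sum 0.577% lower and Erlec1 at 0.12 (adjusted p = 0.423).

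The branch of Eif2ak3 and the factor ATF4, which answers both ER stress and lack of amino acids, lay mostly above 0. Of its 13 genes 9 were above 0 and 4 below, the median log2 fold change was 0.0599, and the sum ran from 10656 to 11206 normalized counts in cKO and 10399 to 10793 in WT. Sesn2, which restrains growth signalling when amino acids are short, had the smallest p at 0.18 (adjusted p = 0.325). In the 16 other signalling genes of the response 9 were below 0 and 7 above, with Creb3l1 at 0.22 (adjusted p = 0.351). The 4 ER selenoproteins were 2 and 2, with Selenot at -0.14 (adjusted p = 0.331). The 16 collagen folding genes were 8 and 8, with P4ha1, a prolyl hydroxylase subunit, at -0.19 (adjusted p = 0.163).

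Chaperones outside the ER were also lower in sum. In 18 cytosolic and mitochondrial chaperones, 11 were below 0 and 7 above, and the summed level ran from 164791 to 175198 in cKO and from 175641 to 180615 in WT, 4.57% lower in cKO. Hsph1, a cytosolic relative of Hyou1, was at -0.22 (adjusted p = 0.161). In 6 of the 18 genes (33.3%) every cKO library was below every WT library, as it was in 4 of the 17 ER folding members (23.5%), against 3.72% of all genes. Such shares were not particular to chaperones, being 18.8% in the collagen folding genes. Among the cell type markers described below, they were 33.3% for microglia, 25% for oligodendrocyte precursors and 18.2% for endothelial cells and for astrocytes. They were 0 for excitatory and for inhibitory neurons.

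**Figure D5:**
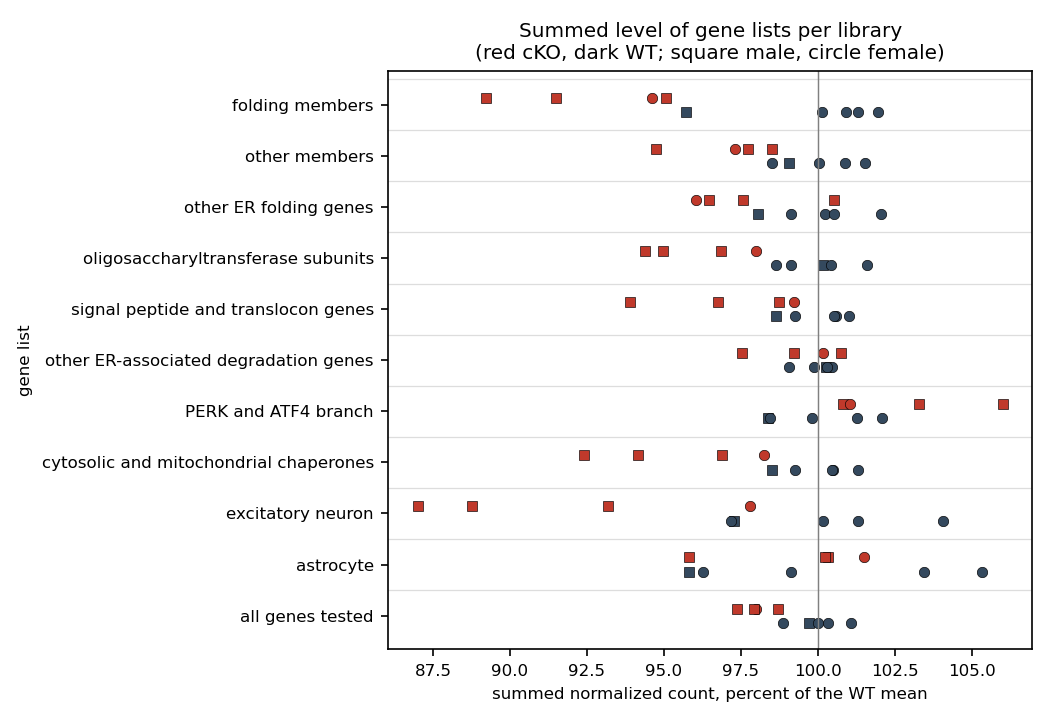
Summed normalized count of each gene list in each library as a percent of the mean of the 5 WT libraries, with cKO in red, WT dark, squares for males and circles for females. The folding members, the oligosaccharyltransferase subunits and the cytosolic and mitochondrial chaperones are lower in all 4 cKO libraries than in any WT library. So is the sum of all genes tested.

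Markers of the cell types in the tissue were summed in the same way, and few of them passed limma. The 9 excitatory neuron markers summed to 177492 to 199526 in cKO and 198239 to 212336 in WT, 8.31% lower by the means though the groups overlapped, with 7 of 9 log2 fold changes below 0 and 0 passing. The 9 inhibitory neuron markers summed to 33584 to 39592 and 34235 to 36519, with the higher mean in cKO (36038 against 35375) and 0 passing. The 11 endothelial markers summed to 9216 to 10170 and 10278 to 11437, 9.52% lower in cKO with no overlap. Their log2 fold changes were below 0 in 7 and above 0 in 4, with a median of only -0.0283. Of them 1 passed lower, the receptor gene Flt1 (-0.34, adjusted p = 0.0417). Microglial markers summed to 8789 to 9850 and 9957 to 10597, 10.4% lower with no overlap and 0 of 9 passing. Oligodendrocyte precursor markers summed to 19829 to 20763 and 21682 to 22905, 9.14% lower with no overlap and 0 of 8 passing. Astrocyte markers summed to 158441 to 167800 and 158429 to 174157, with 1 of 11 passing higher, Gfap (0.29, adjusted p = 0.042), and 2 lower, Aqp4 (-0.35, adjusted p = 0.00206) and Slco1c1 (-0.27, adjusted p = 0.00974). Meningeal fibroblast markers summed to 8252 to 10166 and 5872 to 9809, with 11 of 12 above 0 and 0 passing. Choroid plexus markers ranged from 3254 to 41698 and from 2872 to 55234, led by Ttr, with 0 of 12 passing. Mural markers summed to 11886 to 13193 and 13224 to 14876, 9.25% lower with no overlap and 0 of 9 passing. Rgs5 led this sum, with means of 6865 in cKO and 8132 in WT. Of the 9 log2 fold changes 5 were below 0 and 4 above. At an unadjusted p under 0.05 in limma, 3 mural markers were higher (Acta2, Tagln and Myh11) and 2 lower (Rgs5 and Abcc9). Oligodendrocyte markers summed to 22238 to 33880 and 22000 to 32485 with 0 of 9 passing, and ependymal markers to 533 to 945 and 565 to 1109 with 0 of 6. Blood cell markers summed to 1739 to 2379 and 2070 to 3442, 26.6% lower though the groups overlapped, with 0 of 6 passing. The endothelial, microglial, oligodendrocyte precursor and mural sums were thus lower by more than that of the folding members (7.40%). So were the sums of the excitatory neuron (8.31%), choroid plexus (8.93%) and blood cell markers (26.6%), though their groups overlapped. All these figures compare the means of all animals and take no account of sex. No tested marker was at 0 in all libraries. With the mean log2 level of the meningeal markers as a covariate the median log2 fold change of the members was -0.0516, and with that of the choroid plexus markers it was -0.0562, against -0.0582 without a covariate. The part of the other marker lists in the differences of the ER genes was not tested.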

How the data were processed

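RNA-seq was made from hippocampus of 9 mice. The submitters' processing notes name the aligner STAR 2.7.10b, the trimmer cutadapt 4.4, FastQC 0.12.1, DESeq2 1.41.8 and the build GRCm39. No read counter, annotation or strand setting is given in the sources used here. The authors deposited 1 table holding a signal value for each gene in each library. From the values, these are counts scaled by 1 size factor a library. Dividing by each library's step gave whole reads within 0.1 read for 100.0% of values, and 0 columns were left out. Such values compare libraries, and counting error is largest for low genes.

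Genes were tested with limma-trend (limma 3.58.1, R 4.3.3) on log2(normalized count + 1) with terms for genotype and sex, over genes with a mean of at least 10, with Benjamini-Hochberg adjustment over all of them. Fold changes on this scale understate those of low genes. On the recovered reads, DESeq2 1.42.0 and edgeR 4.0.16 were alternatives, as were other filters, pseudocounts, TMM scaling, marker covariates, no sex term and each library left out. Scripts were tested on simulated counts. Libraries of 1 group differed by at least 3.60 in chi-square per gene, so none was counted as a duplicate. Replicate numbers were given in accession order and pair no animals.

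The members and lists were chosen with earlier results of these data known. The rule gave in full Hspa5, Hsp90b1, Xbp1, any member that passed and the 2 members of smallest p in each role, and of the other lists the genes that passed or the 1 of smallest p. Python 3.11.15, pandas 2.3.3, numpy 2.4.6 and matplotlib 3.10.9 were used.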

Additional observations from a re-analysis of the deposited data

Results flagged for a closer look

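Some values lay far from the others of their group by Dixon's test, which compares the gap to the nearest library with the whole range of the group. Dnajb9 was lowest in cKO replicate 1 at 938 normalized counts (gap over range 0.898), and Ero1b was highest in the same library at 497 (0.887). Hyou1 was lowest in cKO replicate 2 at 3499 (0.856), and Syvn1 was highest in cKO replicate 3 at 1731 (0.859). The summed level of all 32 members was lowest within WT in replicate 1, the WT male, at 100541 (0.762). In all, 72 groups of libraries were examined and 5 were marked, and chance marks about 1 in 20.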

How the results depend on the processing

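The number of members passing for genotype was 0 in limma and stayed 0 with the other pseudocounts, filters, TMM scaling, both covariates, edgeR, and each of the 9 libraries left out. It was 1, Manf, with DESeq2 and 1 without the sex term. The median log2 fold change of the members, -0.0582, was -0.0827 without the sex term and ran from -0.0626 to -0.0223 when 1 library was left out, the latter without cKO replicate 2, the cKO female. Manf was at -0.216 with DESeq2 (adjusted p = 0.0384) and -0.219 without the sex term (adjusted p = 0.0216), and its adjusted p over all alternatives ran from 0.0216 to 0.538. Ostc changed sign with the meningeal covariate (0.0630), and ran from -0.195 to 0.0995 when 1 library was left out. Without the sex term the sign changed for P4hb (-0.00187), Dnajb9 (-0.0339) and Ern1 (0.0810), and with the meningeal covariate for Edem1 (0.0150). When 1 library was left out, Sec61b ran from -0.00280 to 0.0536, Pdia6 from -0.161 to 0.0320, Creld2 from -0.142 to 0.113, Sel1l from -0.111 to 0.00538, Syvn1 from -0.00401 to 0.0413, Ern1 from -0.196 to 0.140, Atf6 from -0.175 to 0.0390 and Ero1b from -0.00443 to 0.134. The cause was not tested. Over all genes, 59 passed in limma, 199 with DESeq2, 216 without the sex term, 10 with the meningeal covariate, 10 without cKO replicate 2 and 21 without WT replicate 1. No paired analysis was possible because replicate numbers were given in accession order and match no animals across groups. The members with a log2 fold change below 0 numbered 21 in limma, with TMM scaling, edgeR and DESeq2, and 19 to 21 when 1 library was left out. Precision was lowest for Derl3 and Pdia5, the members with the fewest counts.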
